A study of Mus musculus with 20 samples.

Results

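Gastrocnemius muscle of SOD1G93A mice was set against gastrocnemius muscle 2 weeks after a crush of the sciatic nerve, with 4 arrays on each side, 8 of the 20 arrays of the series. The members are the arrays whose titles name these muscles. SOD1G93A mice carry a human superoxide dismutase 1 gene with the G93A mutation that causes amyotrophic lateral sclerosis, and the label calls this muscle symptomatic. The crushed group had its sciatic nerves compressed with forceps at mid-thigh for 30 seconds under anaesthesia at 12 weeks of age. All mice were C57BL/6 females, and all muscles were taken at 14 weeks of age. The labels give the crushed mice no transgene and name neither a sham operation nor the promoter of the SOD1 transgene. Gastrocnemius of 4 non-transgenic (NTg) mice without surgery, also 14 weeks old, is given beside both groups as the reference level. Surgery and nerve crush went together in these mice and cannot be told apart. Each title names a biological replicate.

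Skeletal muscle fibres depend on their motor nerve. When the nerve is lost, fibres switch on the myogenic transcription factors of development, spread acetylcholine receptors beyond the synapse, lower genes of energy metabolism and begin to break down protein. In SOD1G93A mice motor axons withdraw from muscle progressively and the loss goes on. After a crush the nerve sheath stays continuous, so axons can regrow along it and reach the muscle again. The study included the crushed muscles as a control for denervation itself. The comparison asks which transcripts differ between a muscle in chronic motor neuron disease and one that was denervated acutely. The groups differ at once in transgene, surgery, and the extent and time course of nerve loss and regrowth. These cannot be told apart here, so a difference is not by itself a mark of chronic disease.

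Values are the log2 MAS5 signals of Affymetrix probe sets, so a difference of 1 is a doubling. Array medians of the 12 gastrocnemius arrays lay between 6.64 and 6.73. A probe set was called when its Benjamini-Hochberg adjusted p in limma was under 0.05 over the 7523 probe sets tested, and a gene is represented by its brightest probe set, which gave 4832 genes. Markers of muscle fibres were all present, 15 of 15 on the array and tested, and none was called. Mouse Sod1 had values of 11.15, 11.28, 10.98 and 10.93 in SOD1G93A muscle and of 10.58, 10.53, 10.42 and 10.81 in crushed muscle. The difference with all arrays was 0.50 (adjusted p = 0.293 in limma). All SOD1G93A values lay above all crush values, as groups did not overlap in 5.48% of all probe sets tested. The Sod1 probes are those of the mouse gene and do not check the human transgene.

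One array decided what this comparison could show. Across the tested probe sets crush replicates 1 to 3 had Pearson r of 0.974 to 0.976 with one another. Crush replicate 4 had r of 0.902 to 0.909 with those 3 arrays and of 0.947 to 0.951 with SOD1G93A replicates 2 to 4. On the first principal component of the gastrocnemius arrays, which held 46.1% of the variance, crush replicates 1, 2 and 3 scored -8.27, -7.91 and -8.0 and crush replicate 4 scored 33.4. The SOD1G93A arrays scored -0.44, 18.4, 19.7 and 33.0, so that SOD1G93A replicate 1 was the nearest of them to the crushed and NTg muscles. These r and scores are descriptions across probe sets of arrays that share a platform and processing. Why crush replicate 4 stood apart was not tested, and leaving it out rests on its own values, so differences are given both without it (the 4-against-3 comparison) and with it (the 4-against-4 comparison).

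**Figure D1:**
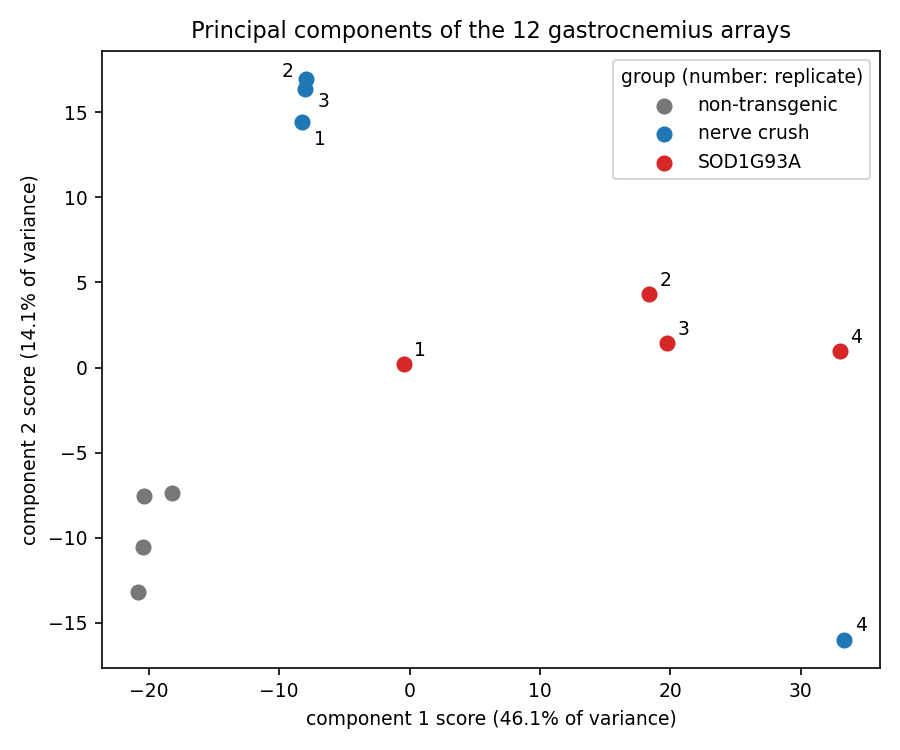
Scores of the 12 gastrocnemius arrays on the first (horizontal) and second (vertical) principal component, with the percent of variance on each axis; each point is 1 array, and numbers are replicates of the crushed and SOD1G93A groups. Crush replicates 1 to 3 lie together at the upper left, and crush replicate 4 lies at the right with a first-component score of 33.4, beside SOD1G93A replicate 4 at 33.0.

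The 4-against-4 comparison called 0 of 7523 probe sets (0%) in limma, with 940 at an unadjusted p under 0.05 and a lowest adjusted p of 0.117. In 412 probe sets (5.48%) the 4 SOD1G93A and the 4 crush values did not overlap, and without crush replicate 4 the groups did not overlap in 24.8%. The 4-against-3 comparison called 604 probe sets (8.03%), 281 higher and 323 lower in SOD1G93A muscle. At the level of genes it called 406 of 4832 (8.4%), 191 higher (3.95%) and 215 lower (4.45%), and the median difference over all genes was -0.00113. Leaving out 1 more array gave between 113 calls (without crush replicate 2) and 985 (without SOD1G93A replicate 1). From all arrays, leaving out any array but crush replicate 4 gave 0 calls, except that 2 genes were called without SOD1G93A replicate 1. These were Bex1 (difference 1.94, adjusted p = 0.0085) and Vapb, a vesicle protein of the endoplasmic reticulum that is itself mutated in a form of motor neuron disease (-1.57, adjusted p = 0.00233). Vapb was not called with all arrays (-1.05, adjusted p = 0.226) or without crush replicate 4 (-1.10, adjusted p = 0.0718). It had values of 8.68, 6.84, 6.06 and 6.92 in SOD1G93A muscle and of 8.50, 8.0, 8.18 and 8.04 in crushed muscle, so the SOD1G93A array left out was the highest of its group. Vapb was named after its values were seen.

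**Figure D2:**
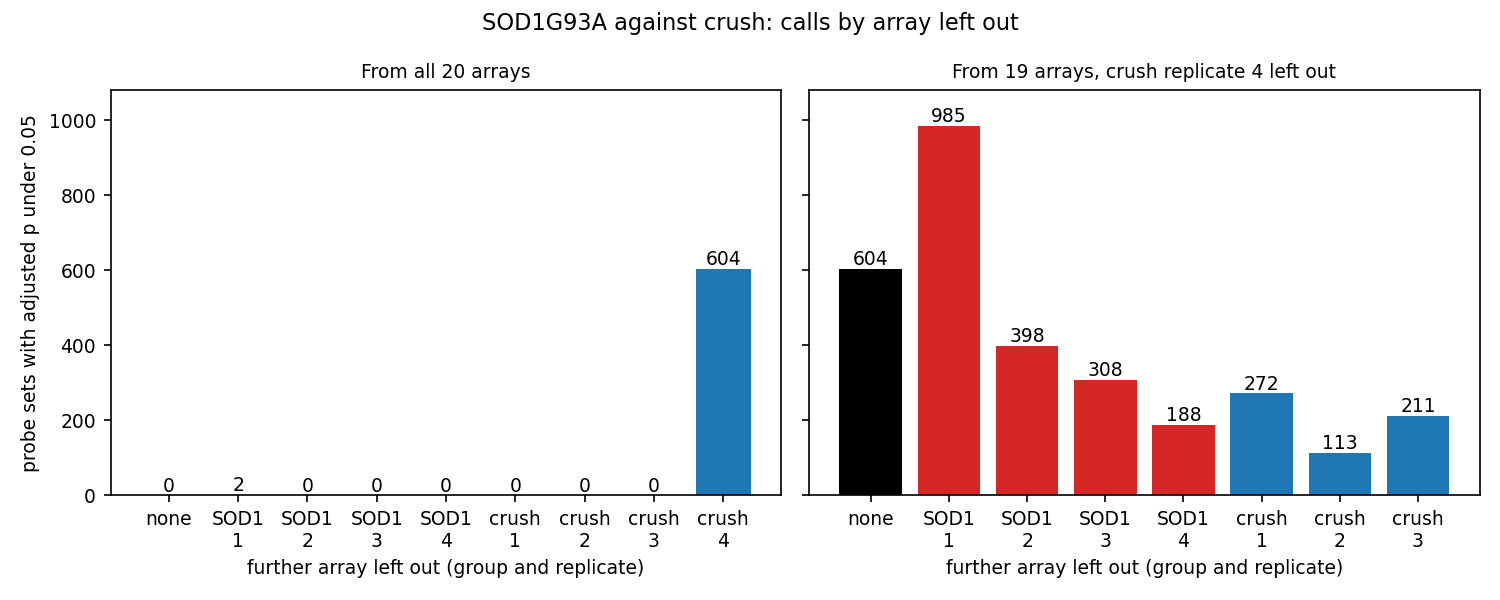
Number of probe sets with adjusted p under 0.05 (vertical) for SOD1G93A against crush when no array or the named array (horizontal) is left out, starting from all 20 arrays (left panel) and from the 19 arrays without crush replicate 4 (right panel); bars start at 0. In the left panel the bar for crush replicate 4 reaches 604 and the others 0 to 2; in the right panel the bars run from 113 to 985.

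Of the 97 called genes taken up by the naming rule, 34 kept their call in the 4-against-3 comparison whichever further array was left out. They are Atp13a3, Atp6v1a, Bex1, Cdkn1a, Chrna1, Dlat, Dlst, Eif4ebp1, Flad1, Gadd45a, Gamt, Grb14, Hspb8, Il6st, Jun, Klf10, Lias, Mt2, Myod1, Myog, Ndufb10, Ndufs3, Nt5c3, Odc1, Pard3, Phka1, Popdc3, Ppp1r14b, Psmd2, Rapsn, Sod2, Tubb4b, Tubb6 and Txn1. Where the call of another gene of the rule is described, the number of these 7 fits that kept it is given. No difference is given for Ptx3, Map2k6, Tmem143, Mlf1 and Nrep, which are among the 12 largest falls. Their calls were kept in 5, 4, 2, 2 and 2 fits. The same holds for the list members Cacng1, Hsph1, Igfbp5, Ltbp3, Orai1, Psmb3, Psmd8, Tfrc and Tgfb3. Their calls were kept in 2, 3, 5, 2, 1, 1, 6, 3 and 1 fits. Unless stated otherwise, a difference is SOD1G93A minus crush replicates 1 to 3, with its standard error (SE), and was not called when all 4 crush arrays entered.

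Acetylcholine receptor genes come first because they carry the response of the fibre surface to the nerve. The promoters of Chrna1, the alpha subunit of the muscle receptor, of Chrnb1, its beta subunit, and of Myog, the transcription factor myogenin, are shown because these 3 genes moved together here and because myogenic factors bind the E-box, the letters CANNTG. Each line gives the 250 bases before the annotated start, 5′ to 3′, from RefSeq on build GRCm38.p6, with every CANNTG in capitals.

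Chrna1: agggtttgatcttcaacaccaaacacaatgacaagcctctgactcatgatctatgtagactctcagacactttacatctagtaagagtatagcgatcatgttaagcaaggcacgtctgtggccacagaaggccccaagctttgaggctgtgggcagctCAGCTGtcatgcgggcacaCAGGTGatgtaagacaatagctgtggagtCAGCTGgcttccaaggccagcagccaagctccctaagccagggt

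Chrnb1: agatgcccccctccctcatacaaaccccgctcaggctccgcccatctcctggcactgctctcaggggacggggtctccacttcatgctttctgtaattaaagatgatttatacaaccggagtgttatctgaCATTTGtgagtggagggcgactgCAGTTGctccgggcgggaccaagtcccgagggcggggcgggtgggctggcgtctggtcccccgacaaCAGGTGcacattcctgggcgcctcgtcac

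Myog: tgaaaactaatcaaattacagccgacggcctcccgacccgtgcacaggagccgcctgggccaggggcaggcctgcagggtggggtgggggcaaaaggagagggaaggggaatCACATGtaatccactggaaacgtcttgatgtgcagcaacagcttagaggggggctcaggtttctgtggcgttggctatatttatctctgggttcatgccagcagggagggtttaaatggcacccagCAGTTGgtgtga

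The Chrna1 window lies at chr2:73580339-73580588 on the minus strand and held 3 CANNTG matches, starting 92, 73 and 44 bases before the start, of which 2 were CAGCTG, the form preferred by myogenic factors. The Chrnb1 window, chr11:69795938-69796187 on the minus strand, held 3 matches and no CAGCTG. The Myog window, chr1:134289754-134290003 on the plus strand, held 2 matches and no CAGCTG. Both motifs read the same on either strand, and every CAGCTG is also a CANNTG. Of all 32851 promoter windows of this length, 66.2% held a CANNTG and 13% a CAGCTG. Mef2a, the other called gene of the junction and myogenic lists with a window, had no match and is not shown. Rapsn, Myod1 and Myf6 are named only. A match describes letters in a window and shows no binding.

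Chrna1 had values of 8.57, 10.23, 10.30 and 10.85 in SOD1G93A muscle and of 6.97, 7.28 and 7.40 in crush replicates 1 to 3, with 11.34 in crush replicate 4. The first 3 crush arrays lay below every SOD1G93A array and above the NTg mean of 6.45 ± 0.29 (SD, n = 4), and crush replicate 4 lay above all SOD1G93A arrays. The difference was 2.77 (SE 0.55), or 6.83-fold (adjusted p = 0.00691), against 1.74 (adjusted p = 0.353) with all arrays. Chrnb1 had values of 7.26, 8.11, 8.45 and 8.89 in SOD1G93A muscle and of 6.52, 7.03 and 6.96 in crush replicates 1 to 3, with 9.16 in replicate 4. Its difference was 1.34 (SE 0.40, adjusted p = 0.0444), a call that 1 of the 7 fits kept, against 0.76 (adjusted p = 0.528) with all arrays.

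Rapsn, which anchors the receptor under the synaptic membrane, showed another arrangement. Its values were 6.68, 6.69, 7.16 and 6.67 in SOD1G93A muscle, where NTg muscle had a mean of 6.59 ± 0.09 (SD, n = 4). The first 3 crush arrays lay at 5.90, 5.63 and 5.69, below both, and crush replicate 4 at 6.71. The difference was 1.06 (SE 0.18), or 2.09-fold (adjusted p = 0.00266; all arrays 0.82, adjusted p = 0.156). Of the 7 tested genes of the junction list, these 3 were higher and none was lower, where 3.95% of all genes were higher, with a list median of 0.20 against -0.00113 over all genes. Erbb3, Lamb2, Prkar1a and Utrn, the other tested members, had differences of 0.14, -0.21, -0.17 and 0.20 and adjusted p from 0.38 to 0.739. The list gave 2 calls whichever further array was left out, except that it gave 3 without SOD1G93A replicate 1.

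Among the myogenic regulators 4 of 11 tested genes were higher, where 3.95% of all genes were, none was lower and all 11 differences were above 0 (median 0.40). With all arrays none was called, and 10 of the 11 were above 0 (median 0.32). Myog, the factor that drives terminal differentiation, had values of 8.34, 9.18, 9.97 and 9.75 in SOD1G93A muscle, of 6.31, 6.85 and 7.09 in crush replicates 1 to 3 and of 10.14 in replicate 4. Its difference was 2.56 (SE 0.48), or 5.91-fold (adjusted p = 0.00515; all arrays 1.72, adjusted p = 0.275). Myod1, the factor that commits cells to the muscle lineage, had values of 7.65, 8.38, 9.30 and 9.21 against 6.06, 6.41 and 6.45, with 9.56 in crush replicate 4. It differed by 2.33 (SE 0.43), or 5.03-fold (adjusted p = 0.00515; all arrays 1.51, adjusted p = 0.305). For both genes crush replicates 1 to 3 did not differ from NTg muscle by the test (Myog 0.68, adjusted p = 0.447; Myod1 -0.20, adjusted p = 0.844), while SOD1G93A muscle did (9.48-fold and 4.37-fold, adjusted p = 0.000225 and 0.00264). Comparisons with NTg muscle share arrays with the main one and are not separate evidence.

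Myf6, the myogenic factor most abundant in adult fibres, had values of 9.51, 9.91, 9.91 and 10.11 in SOD1G93A muscle. The first 3 crush arrays had 9.04, 9.22 and 9.39, NTg muscle had a mean of 8.57 ± 0.09 (SD, n = 4), and crush replicate 4 had 11.18, the highest of all. Here the 3 crush arrays lay between the other groups (difference 0.64, SE 0.18, adjusted p = 0.0381, kept in 1 of 7 fits). With all arrays the difference was 0.15 (adjusted p = 0.875), and it turned to -0.07 and -0.00877 when crush replicate 1 or 2 was left out. Mef2a, a MADS-box partner of these factors, was higher by 0.80 (SE 0.18, adjusted p = 0.0126, kept in 4 fits; all arrays 0.32, adjusted p = 0.683). Of its 3 other probe sets, those with differences of 1.08 and 0.80 were called (adjusted p = 0.0247 and 0.024) and that with 0.81 was not (adjusted p = 0.056). The list gave 2 calls without SOD1G93A replicate 4, crush replicate 1 or crush replicate 2.

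Growth arrest genes held some of the largest rises. Cdkn1a, the p21 inhibitor of cyclin-dependent kinases, had values of 9.41, 10.57, 10.91 and 10.86 in SOD1G93A muscle, of 6.86, 7.24 and 7.86 in crush replicates 1 to 3 and of 11.21 in replicate 4. The groups did not overlap without replicate 4, as in 24.8% of all probe sets tested. The difference was 3.12 (SE 0.45), or 8.68-fold (adjusted p = 0.000896; all arrays 2.14, adjusted p = 0.226). Gadd45a, a stress sensor that denervated muscle is known to raise, had values of 8.92, 9.47, 9.80 and 10.18 against 6.82, 6.39 and 6.80, with 10.90 in replicate 4, a difference of 2.92 (SE 0.42), or 7.57-fold (adjusted p = 0.000896; all arrays 1.86, adjusted p = 0.277). NTg means were 6.84 ± 0.54 and 6.16 ± 0.24 (SD, n = 4), and the differences of crush replicates 1 to 3 from NTg muscle, 0.48 and 0.50, were not called (adjusted p = 0.601 and 0.539). Btg1, an antiproliferative factor, and Mdm2, the ligase that degrades p53, were higher by 1.22 (SE 0.30, adjusted p = 0.0209) and 0.84 (SE 0.18, adjusted p = 0.0106), with all-array differences of 0.97 and 0.52 (adjusted p = 0.226 and 0.377). Their calls were kept in 4 and 6 fits, and each has another probe set that was not called (adjusted p = 0.084 and 0.231). Of 15 tested growth arrest genes 4 were higher and none lower, where 3.95% of all genes were higher (median 0.29, and 0.18 with all arrays), and 2 were called without crush replicate 2.

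**Figure D3:**
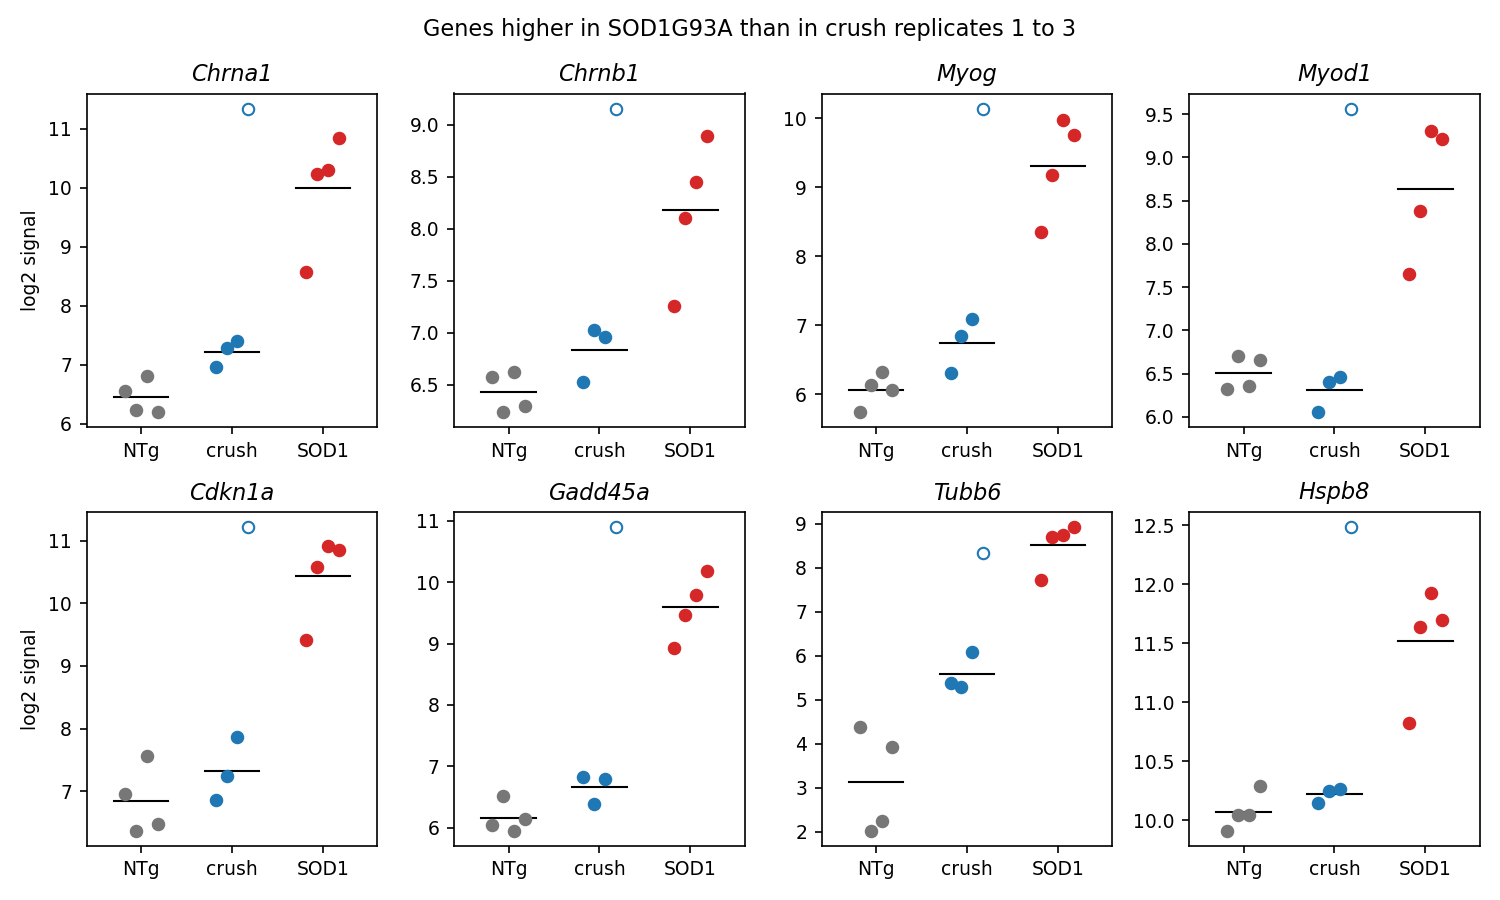
Log2 signal (vertical) of 8 genes in each array of NTg, nerve-crushed and SOD1G93A gastrocnemius; filled points are arrays, the open point is crush replicate 4, and lines are group means, for crush over replicates 1 to 3. Crush replicates 1 to 3 lie below all 4 SOD1G93A arrays in each panel, SOD1G93A replicate 1 is the lowest of its group, and crush replicate 4 lies within or above the SOD1G93A arrays.

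Cytoskeletal genes separated in the same direction. Tubb6, a beta-tubulin little expressed in adult muscle, had values of 7.71, 8.69, 8.75 and 8.92 in SOD1G93A muscle, of 5.38, 5.29 and 6.08 in crush replicates 1 to 3 and of 8.33 in replicate 4. Its NTg values were 4.37, 2.03, 2.24 and 3.92, and no detection calls come with these signals. The difference was 2.94 (SE 0.55), or 7.65-fold (adjusted p = 0.00537; all arrays 2.25, adjusted p = 0.188), with crush replicates 1 to 3 between the other groups (2.45 above NTg muscle, adjusted p = 0.0162). Tubb4b behaved otherwise: SOD1G93A arrays had 9.43, 9.53, 9.25 and 9.17, close to the NTg mean of 9.52 ± 0.07 (SD, n = 4), and crush replicates 1 to 3 had 8.21, 8.21 and 8.13. It was higher in SOD1G93A muscle by 1.16 (SE 0.15, adjusted p = 0.000312). Crush replicate 4 had 9.08, so all 4 crush arrays lay below all SOD1G93A arrays. The 4-against-4 difference of 0.94 had an adjusted p of 0.117, the lowest of that comparison. Bex1, Flad1, Pard3, Popdc3, Ppp1r14b, Smim8 and Tmem176b also had 0.117 there.

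Tubb2a and Tubb5, other beta-tubulins, were higher by 1.68 (SE 0.41, adjusted p = 0.0182, kept in 2 fits) and 0.62 (SE 0.14, adjusted p = 0.0115, kept in 5 fits). With all arrays they differed by 1.31 and 0.54 (adjusted p = 0.226 and 0.153). The other probe set of Tubb5 had a difference of -0.25 (adjusted p = 0.479). These 4 of 15 tested filament and tubulin genes were higher, where 3.95% of all genes were, and none was lower (median 0.62, and 0.40 with all arrays). The list gave 2 calls without crush replicate 2 or crush replicate 3, and 6 at most. Tubulin genes are close in sequence, and probe sets may share signal among them.

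Sarcomere genes of the embryonic and cardiac programmes gave 3 calls among 11 tested, all higher, where 3.95% of all genes were. Myl4, the embryonic and atrial myosin light chain, had values of 8.03, 9.41, 9.44 and 9.37 against 7.17, 7.64 and 7.22 in crush replicates 1 to 3, with 8.88 in replicate 4. It differed by 1.72 (SE 0.42, adjusted p = 0.0182, kept in 2 fits; all arrays 1.33, adjusted p = 0.226). Cavin4, a muscle caveolar protein, and Xirp1, an actin-binding repair protein, were higher by 1.11 and 0.95 (adjusted p = 0.0111 and 0.0265, kept in 6 and 3 fits), against 0.83 and 0.63 with all arrays (adjusted p = 0.226 and 0.38). Both lay near NTg muscle in the SOD1G93A arrays (0.46 and 0.45 above it, adjusted p = 0.166 and 0.181). The list median was 0.88 with 3 crush arrays and 0.24 with 4, and no member was called higher without crush replicate 2.

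Slow-fibre genes had a median of 0.73 (all arrays 0.55), and 0 of 12 were called. Tnni1, slow troponin I, had values of 10.75, 11.10, 10.05 and 11.29 in SOD1G93A muscle and of 10.13, 10.33, 8.09 and 10.67 in crushed muscle (1.28, adjusted p = 0.534; all arrays 0.99, adjusted p = 0.722). Crush replicate 3 and SOD1G93A replicate 3 were the lowest of their groups, and without crush replicate 3 the list median was 0.21. The fast-fibre median was -0.11, and 0.05 after quantile normalization, so it has no settled direction. The list had 1 of 22 lower, near the 4.45% of all genes that were lower. This was Myom2, an M-band protein of fast fibres, at -1.11 (SE 0.23, adjusted p = 0.01, kept in 6 fits; all arrays -0.65, adjusted p = 0.427).

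Other genes among the 12 largest rises cover transport, signalling and little-known functions. Atp13a3, a transporter of polyamines, had values of 8.50, 9.51, 9.85 and 10.18 in SOD1G93A muscle, of 6.88, 6.89 and 7.37 in crush replicates 1 to 3 and of 10.50 in replicate 4, a difference of 2.46 (SE 0.39, adjusted p = 0.00198; all arrays 1.60, adjusted p = 0.277). Odc1, the enzyme that starts polyamine synthesis, was higher by 1.0 (SE 0.17, adjusted p = 0.00317; all arrays 0.61, adjusted p = 0.356). Of its further probe sets 1 was called (0.85, adjusted p = 0.0207) and 1 was not (0.62, adjusted p = 0.085). Oaz2, an antizyme that restrains it, was lower by 0.40 (adjusted p = 0.0425, kept in 1 fit; all arrays -0.25, adjusted p = 0.444).

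Tnfrsf12a, the receptor Fn14 of the cytokine TWEAK, had values of 6.84, 7.61, 8.26 and 7.89 in SOD1G93A muscle. Its lowest value lay near the NTg mean of 6.94 ± 0.69 (SD, n = 4) and the others above it. The first 3 crush arrays had 5.41, 5.40 and 5.34, and crush replicate 4 had 8.68. The difference of 2.27 (SE 0.49, adjusted p = 0.0108, kept in 6 fits; all arrays 1.44, adjusted p = 0.362) stood beside 0.71 against NTg muscle (adjusted p = 0.295). Bex1 had values of 8.51, 9.51, 10.01 and 10.12 against 7.47, 7.72 and 7.57, with 9.01 in crush replicate 4. Its 3 crush arrays lay below the NTg mean of 8.80 ± 0.19 (SD, n = 4), and the difference was 1.95 (SE 0.28), or 3.86-fold (adjusted p = 0.000896; all arrays 1.59, adjusted p = 0.117). Cpne2, Aif1l and Fez1 were higher by 3.12, 2.29 and 2.08 (adjusted p = 0.0138, 0.0402 and 0.0214), with 4, 1 and 2 fits keeping the call. With all arrays they differed by 2.18, 1.48 and 1.35 (adjusted p = 0.288, 0.421 and 0.377). One other probe set of Aif1l was not called (0.85, adjusted p = 0.259).

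The genes lower in SOD1G93A muscle fell into separate arrangements. In the first, crush replicates 1 to 3 lay above both SOD1G93A and NTg muscle. Grb14, an adaptor that dampens insulin receptor signalling, had values of 6.27, 6.48, 5.72 and 5.47 in SOD1G93A muscle, an NTg mean of 6.53 ± 0.25 (SD, n = 4), and 7.71, 7.76 and 8.01 in crush replicates 1 to 3. Crush replicate 4 had 3.99, below every other gastrocnemius array. The difference was -1.85 (SE 0.23), or 3.60-fold lower (adjusted p = 0.000312; all arrays -0.89, adjusted p = 0.533).

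Gamt, the enzyme that completes creatine synthesis, had values of 6.40, 6.55, 6.44 and 6.06 against 7.94, 7.58 and 7.64, with 5.85 in replicate 4 and an NTg mean of 6.08 ± 0.15 (SD, n = 4). It differed by -1.36 (SE 0.17, adjusted p = 0.000312; all arrays -0.89, adjusted p = 0.233), and crush replicates 1 to 3 were 3.12-fold above NTg muscle (adjusted p = 8.7e-05). Aplnr, the apelin receptor of vessels, and Ccnd1, cyclin D1, were arranged alike: lower than in crush replicates 1 to 3 by 1.41 and 0.79 (adjusted p = 0.0335 and 0.0243; all arrays -0.92 and -0.47, adjusted p = 0.405 and 0.451). Their calls were kept in 1 and 3 fits, and Ccnd1 was also 0.59 above NTg muscle in SOD1G93A mice (adjusted p = 0.037). Il15, a cytokine made by muscle, had values of 6.36, 5.32, 5.49 and 5.59 against 6.68, 7.17 and 7.45, with 4.27 in crush replicate 4 (difference -1.41, SE 0.29, adjusted p = 0.00928, kept in 6 fits; all arrays -0.70, adjusted p = 0.549).

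The second arrangement had crush replicates 1 to 3 at the NTg level and SOD1G93A muscle below it. Phka1, the alpha subunit of muscle phosphorylase kinase, had values of 10.17, 9.17, 9.12 and 8.60 in SOD1G93A muscle. In crushed muscle replicates 1 to 3 had 10.69, 10.62 and 10.65, beside an NTg mean of 10.65 ± 0.10 (SD, n = 4), and crush replicate 4 had 9.20. Its difference of -1.39 (SE 0.29, adjusted p = 0.01; all arrays -1.03, adjusted p = 0.226) stood beside an equally large one from NTg muscle, 2.62-fold each. Gpd1, glycerol-3-phosphate dehydrogenase, had values of 9.21, 8.73, 8.69 and 7.19 against 9.58, 9.78 and 9.75, with 7.67 in replicate 4 (-1.25, SE 0.34, adjusted p = 0.0277, kept in 3 fits; all arrays -0.74, adjusted p = 0.467). Its other probe sets were not called (-1.25 and -0.26, adjusted p = 0.084 and 0.683).

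Glycolysis and glycogen genes as a list had 7 of 28 tested members lower, where 4.45% of all genes were, and none higher, with a median of -0.49 (all arrays -0.31). Besides Phka1 and Gpd1 these were Slc16a3, the lactate exporter MCT4 (-1.13, adjusted p = 0.0455), Phkg1, the catalytic subunit of phosphorylase kinase (-1.04, adjusted p = 0.0394), Gys1, Tpi1 and Ugp2 (-0.86, -0.82 and -0.59), the last 3 named after their values were seen. With all arrays these 5 differences were -0.40, -0.67, -0.56, -0.44 and -0.43, in that order (adjusted p from 0.319 to 0.76). Slc16a3 and Phkg1 kept their calls in 1 fit each, and with all arrays but SOD1G93A replicate 4 the Slc16a3 difference was 0.06. SOD1G93A arrays spread widely on this list, with medians of -0.06, -0.44, -0.56 and -0.96 relative to NTg muscle in replicates 1, 2, 3 and 4. The first 3 crush arrays stood at 0.06, 0.10 and -0.18, and crush replicate 4 had -0.80. The list gave 2 calls without SOD1G93A replicate 4, crush replicate 1 or crush replicate 2, and 15 without SOD1G93A replicate 1.

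Mitochondrial genes made up many of the lower calls. The respiratory chain had 14 of 72 tested members lower, where 4.45% of all genes were, and none higher, with a median of -0.30, and 70 of the 72 differences were below 0. With all arrays none was called, and the median was -0.19. Complex I held 9 of them among 32 tested (median -0.33), complex II 3 of 4 (median -0.51) and complex III 2 of 9 (median -0.39). None of 11 complex IV and 15 ATP synthase genes was called (medians -0.18 and -0.28). Ndufs1, a core subunit of complex I, had values of 10.19, 10.19, 10.10 and 9.47 in SOD1G93A muscle, of 10.67, 10.76 and 10.61 in crush replicates 1 to 3 and of 9.46 in replicate 4. NTg muscle had a mean of 10.18 ± 0.09 (SD, n = 4), close to the first 3 SOD1G93A arrays. The difference was -0.69 (SE 0.15, adjusted p = 0.0106, kept in 6 fits; all arrays -0.39, adjusted p = 0.467).

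Ndufb10 and Ndufs3, further complex I subunits, were lower by 0.69 and 0.57 (adjusted p = 0.00459 and 0.00691), and Sdhd, a membrane anchor of complex II, by 0.70 (adjusted p = 0.0135, kept in 6 fits). In the 4-against-4 comparison these 3 differences were -0.35, -0.38 and -0.43 (adjusted p = 0.533, 0.291 and 0.415). The other probe set of Sdhd was not called (-0.45, adjusted p = 0.181). Against NTg muscle the list median was -0.15 in SOD1G93A muscle with 1 member lower (8.88% of all genes were), and 0.17 in crush replicates 1 to 3 with 1 member higher (2.67% of all genes). In crush replicate 4 it was -0.37. The respiratory chain gave 2 calls without crush replicate 2 and 21 at most.

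The TCA cycle and fatty-acid oxidation list had 15 of 37 tested members lower, where 4.45% of all genes were lower, with a median of -0.41. Dlat, the acetyltransferase core of pyruvate dehydrogenase, had values of 8.93, 8.90, 8.74 and 8.32 in SOD1G93A muscle, an NTg mean of 8.82 ± 0.05 (SD, n = 4), and 9.49, 9.67 and 9.55 in crush replicates 1 to 3. Crush replicate 4 had 8.19. The difference was -0.85 (SE 0.13, adjusted p = 0.0011; all arrays -0.50, adjusted p = 0.369), beside 0.75 for crush replicates 1 to 3 over NTg muscle (adjusted p = 0.00256). Dlst, the matching subunit of the 2-oxoglutarate dehydrogenase complex, was lower by 0.68 (adjusted p = 0.00431; all arrays -0.35, adjusted p = 0.518). Lias, which makes the lipoic acid that both enzymes carry, had values of 7.76, 7.74, 7.64 and 7.60 against 8.25, 8.47, 8.16 and, in replicate 4, 7.87. All 4 crush arrays lay above all SOD1G93A arrays, and the difference was -0.61 (SE 0.12, adjusted p = 0.0056) with 3 crush arrays and -0.50 (adjusted p = 0.145) with 4.

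Of these 37 genes 10 were called higher in crush replicates 1 to 3 than in NTg muscle and none lower (2.67% and 2.86% of all genes), with a median of 0.31. SOD1G93A muscle had 1 higher and 3 lower than NTg muscle (9.11% and 8.88% of all genes), with a median of -0.07. The 19 fatty-acid oxidation and supply genes, such as Hadh and Acaa2 of the mitochondrial beta-oxidation spiral (-0.62 and -0.58, all arrays -0.21 and -0.06, named after their values were seen), had a median of 0.02 in SOD1G93A muscle and 0.33 in crush replicates 1 to 3, both relative to NTg muscle. Idh3a of the TCA cycle and Pdk2, a kinase that turns pyruvate dehydrogenase off, were instead below NTg muscle in SOD1G93A mice (1.47-fold and 1.78-fold, adjusted p = 0.0223 and 0.003). They were lower than in crush replicates 1 to 3 by 0.79 and 0.67 (adjusted p = 0.0106 and 0.0234, kept in 6 and 1 fits; all arrays -0.48 and -0.38, adjusted p = 0.4 and 0.516). Crush replicate 4 had a list median of -0.72, below the SOD1G93A arrays at 0.08, 0.02, -0.08 and -0.19. With it the list difference had a median of -0.16 and no member was called. The list gave 5 calls without crush replicate 2.

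**Figure D4:**
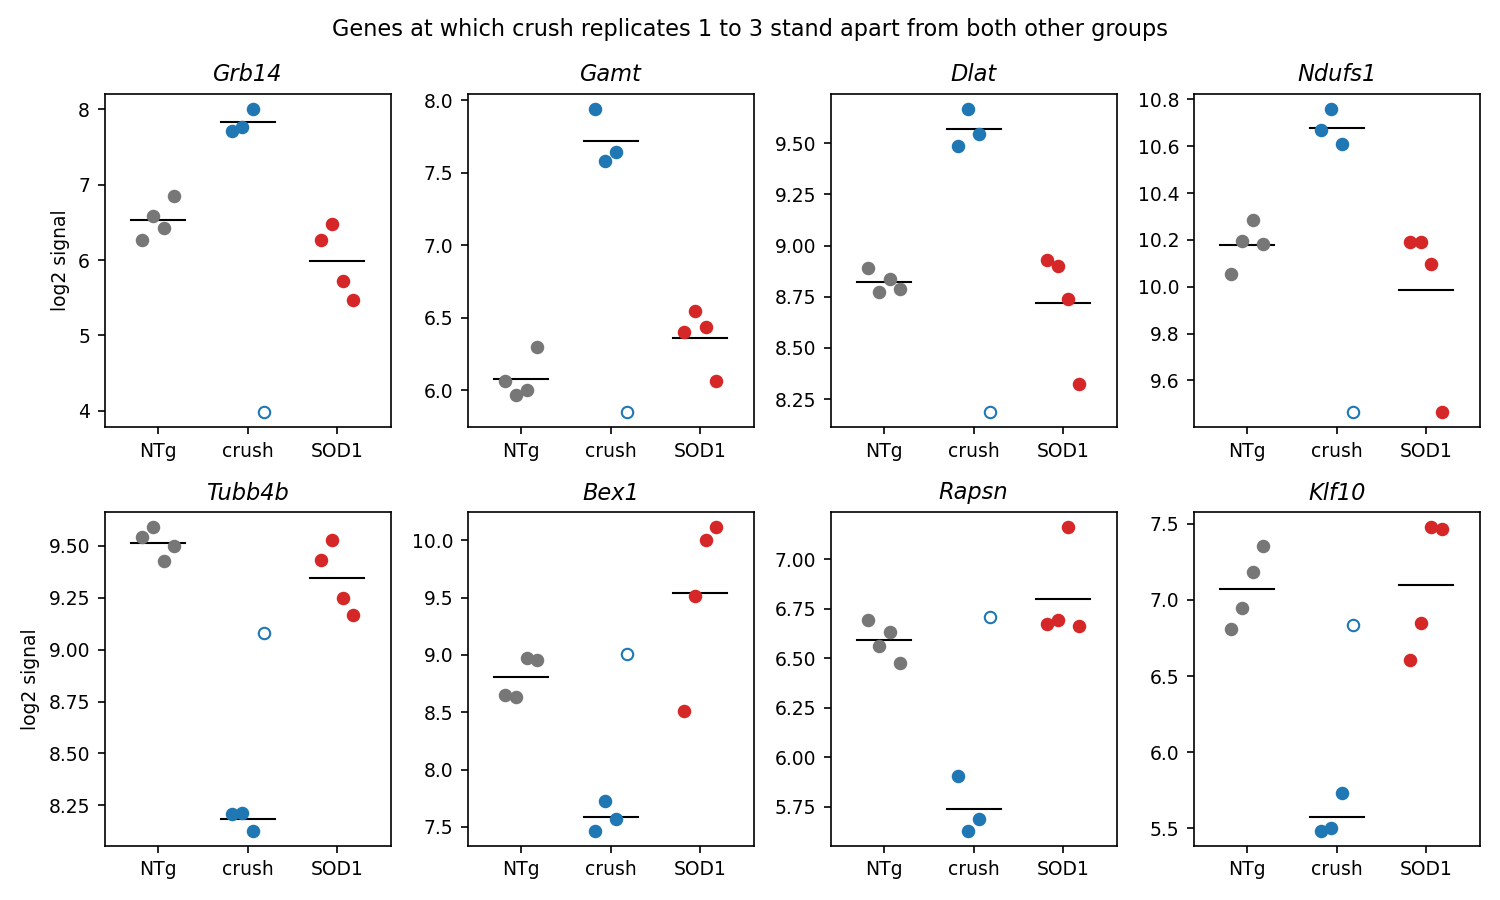
Log2 signal (vertical) of 8 genes in each array of NTg, nerve-crushed and SOD1G93A gastrocnemius, drawn as in the plot of raised genes, with crush replicate 4 as the open point. Crush replicates 1 to 3 lie above both other groups in the upper row (Grb14, Gamt, Dlat, Ndufs1) and below both in the lower row (Tubb4b, Bex1, Rapsn, Klf10).

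Protein breakdown genes were higher in SOD1G93A muscle in small steps. The proteasome had 11 of 37 tested subunits higher, where 3.95% of all genes were, and 1 lower, with a median of 0.34 (0.18 with all arrays, when none was called), from 6 of 19 regulatory-particle (19S) genes and 5 of 15 core genes. Psmd2, a base subunit of the regulatory particle, had values of 10.07, 10.24, 10.25 and 10.21 in SOD1G93A muscle, of 9.50, 9.60 and 9.56 in crush replicates 1 to 3 and of 10.37 in replicate 4. It was higher by 0.64 (SE 0.09, adjusted p = 0.000896; all arrays 0.44, adjusted p = 0.226), and the 3 crush arrays lay 0.44 below NTg muscle (adjusted p = 0.0116). Psma7, a core subunit, was higher by 0.57 (SE 0.13, adjusted p = 0.0153, kept in 4 fits; all arrays 0.36, adjusted p = 0.386). Psme1, an interferon-inducible activator, was the 1 lower member (-0.50, adjusted p = 0.0244; all arrays -0.28, adjusted p = 0.505), named after its values were seen. Only 1 subunit was called higher without crush replicate 2.

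Of the atrophy ligases and FoxO genes 2 of 13 were higher, where 3.95% of all genes were. Fbxo32, the ligase atrogin-1, had values of 8.17, 8.97, 8.88 and 8.30 in SOD1G93A muscle and of 7.77, 7.55, 8.08 and 8.02 in crushed muscle, with an NTg mean of 8.64 ± 0.22 (SD, n = 4). All crush arrays lay below all SOD1G93A arrays, which themselves did not differ from NTg muscle by the test (-0.06, adjusted p = 0.865). The difference of 0.78 (adjusted p = 0.0398; all arrays 0.72, adjusted p = 0.204) was kept in 1 fit, and the other probe set was not called (0.34, adjusted p = 0.493). Eif4ebp1, a repressor of translation initiation, was higher by 0.79 (SE 0.15, adjusted p = 0.00537; all arrays 0.52, adjusted p = 0.317). Autophagy and lysosome genes had 4 of 28 higher, where 3.95% of all genes were. They were Atp6v1a, a subunit of the lysosomal proton pump (0.69, adjusted p = 0.00946), the cathepsins Ctsl and Ctsd (0.65 and 0.47, kept in 6 and 4 fits) and the cargo receptor Sqstm1 (0.37, kept in 4 fits). With all arrays these 4 differed by 0.51, 0.29, 0.30 and 0.17 (adjusted p from 0.226 to 0.651). The list gave 1 call without crush replicate 2.

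Stress and early-response genes moved in both directions. Hspb8, a small heat shock protein of chaperone-assisted autophagy, had values of 10.83, 11.64, 11.93 and 11.70 in SOD1G93A muscle, of 10.15, 10.25 and 10.26 in crush replicates 1 to 3 and of 12.48 in replicate 4 (1.30, SE 0.21, adjusted p = 0.00248; all arrays 0.74, adjusted p = 0.415). Mt2, a metallothionein that binds zinc and copper, had values of 8.99, 8.87, 9.25 and 9.23 against 7.60, 7.30 and 7.52, with 9.04 in replicate 4, a difference of 1.61 (SE 0.28), or 3.05-fold (adjusted p = 0.00418; all arrays 1.22, adjusted p = 0.186). Txn1, thioredoxin, was higher by 0.76 (adjusted p = 0.0053; all arrays 0.35, adjusted p = 0.583). Sod2, the manganese superoxide dismutase of mitochondria, went the other way, -0.53 (SE 0.10, adjusted p = 0.00584; all arrays -0.32, adjusted p = 0.405), and its second probe set was not called (-0.39, adjusted p = 0.07). The mitochondrial chaperones Hspd1 and Hspa9 were lower by 0.49 and 0.41 (adjusted p = 0.011 and 0.0249, kept in 6 and 2 fits; all arrays -0.37 and -0.29, adjusted p = 0.226 and 0.343). Further probe sets of Hspa9, Oaz2, Phkg1, Hspa5, Canx and Ccn1, genes described here, were not called.

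Unfolded-protein genes had 4 of 20 higher, where 3.95% of all genes were. Ppp1r15a, Xbp1, Hspa5 and Canx were higher by 0.82, 0.77, 0.72 and 0.51, kept in 5, 5, 2 and 4 fits. None of them was called without crush replicate 2. With all arrays they differed by 0.52, 0.41, 0.56 and 0.39 (adjusted p from 0.247 to 0.518). Of the 3 other probe sets of Xbp1, 1 was called (0.84, adjusted p = 0.00533). Immediate-early genes had 4 of 15 higher, beside the same 3.95% of all genes. Klf10, a TGF-beta-induced repressor, had values of 6.61, 6.85, 7.48 and 7.46 in SOD1G93A muscle, against 5.49, 5.50 and 5.73 in crush replicates 1 to 3 and 6.84 in replicate 4. The NTg mean was 7.07 ± 0.24 (SD, n = 4), so the 3 crush arrays were the ones apart, and the difference was 1.53 (SE 0.24, adjusted p = 0.00198; all arrays 1.21, adjusted p = 0.138). Jun, by contrast, had values of 8.83, 8.42, 8.97 and 8.98 against 7.43, 7.62 and 7.57 and an NTg mean of 7.59 ± 0.31 (SD, n = 4), a difference of 1.26 (SE 0.25, adjusted p = 0.00697; all arrays 0.86, adjusted p = 0.273). Jund and Ccn1 were higher by 0.69 and 0.96 (adjusted p = 0.0279 and 0.037, kept in 2 and 3 fits; all arrays 0.66 and 0.45, adjusted p = 0.165 and 0.636).

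Among neurotrophic and growth signals 4 of 17 were higher and 1 lower, where 3.95% and 4.45% of all genes were. Il6st, the shared receptor gp130 of the interleukin-6 family, had values of 8.52, 8.50, 8.68 and 8.81 against 7.92, 7.93 and 7.77, with 8.86 in crush replicate 4 and an NTg mean of 8.47 ± 0.14 (SD, n = 4). It was higher by 0.75 (SE 0.15, adjusted p = 0.00691), and by 0.50 with all arrays (adjusted p = 0.293). Its other probe set was not called (0.04, adjusted p = 0.928). Wnt4 had values of 6.63, 5.99, 6.43 and 5.47 against 4.27, 5.57 and 5.16 in crush replicates 1 to 3, so the groups overlapped, and its call (1.13, adjusted p = 0.0499; all arrays 0.64, adjusted p = 0.539) was kept in 1 fit.

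Both groups lay far from NTg muscle in some genes that this comparison did not call. The following 4 were chosen after their values were seen. Sln, sarcolipin, the inhibitor of the calcium pump, had values of 11.76, 12.78, 12.66 and 12.31 in SOD1G93A muscle and of 10.98, 11.49, 11.23 and 13.14 in crushed muscle, far above NTg values of 7.99, 5.70, 8.63 and 7.70. The 4-against-3 difference was 1.14 with a 95% interval from -0.13 to 2.41 (adjusted p = 0.25), and 0.67 with all arrays. Pfkfb3, which makes the activator of glycolysis, had values of 6.97, 7.57, 8.15 and 6.33 against 7.77, 6.11, 6.52 and 6.25, with an NTg mean of 9.80 ± 0.12 (SD, n = 4). Its difference was 0.46 with an interval from -0.78 to 1.70, and 0.59 with all arrays. Igf2, a growth factor of muscle regeneration, and Tuba8, an alpha-tubulin of muscle, had differences of -0.12 (interval -0.64 to 0.39) and 0.12 (interval -0.40 to 0.64), and of -0.18 and 0.40 with all arrays. These intervals allow differences of either sign, and equality was not shown.

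Some genes of the naming rule were among the 5.48% of probe sets whose groups did not overlap with crush replicate 4 included, although none passed the test with all arrays. They include Tubb4b, described above, and Tmem176b, a membrane channel-like protein of immune cells. Tmem176b had values of 8.12, 8.71, 7.92 and 8.39 in SOD1G93A muscle and of 7.54, 7.25, 7.30 and 7.14 in crushed muscle. Here crush replicate 4 was the lowest crush array, and the difference was 0.98 (adjusted p = 0.117) with all arrays and 0.92 (adjusted p = 0.013, kept in 5 fits) without it. Pard3, a cell polarity scaffold, had values of 6.88, 7.05, 6.95 and 6.79 against 6.47, 6.11, 6.06 and 6.56 (0.62, adjusted p = 0.117; without crush replicate 4 0.71, adjusted p = 0.00515).

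On the lower side Flad1, which makes the cofactor FAD, had values of 6.85, 6.94, 6.59 and 7.08 in SOD1G93A muscle and of 7.63, 7.47, 7.55 and 7.16 in crushed muscle (-0.59, adjusted p = 0.117; without crush replicate 4 -0.68, adjusted p = 0.00431). Bcap29, a protein of the endoplasmic reticulum, had values of 7.73, 7.60, 7.73 and 7.55 against 8.11, 8.15, 8.28 and 8.37 (-0.57, adjusted p = 0.138; without crush replicate 4 -0.52, adjusted p = 0.0268, kept in 2 fits). In this gene crush replicate 4 was the farthest crush array from SOD1G93A muscle. Smim8, Plaat1 and Nt5c3 had differences of -0.57, -0.65 and -0.57 with all arrays (adjusted p = 0.117, 0.138 and 0.145) and of -0.64, -0.68 and -0.70 without crush replicate 4 (adjusted p = 0.00709, 0.0184 and 0.00575, kept in 6, 2 and 7 fits). Among genes higher in SOD1G93A muscle, Ppp1r14b, an inhibitor of myosin phosphatase, and Popdc3, a cyclic-AMP-binding protein of muscle, had groups that overlapped only through crush replicate 4. Their differences were 0.97 and 0.73 with all arrays (adjusted p = 0.117 each) and 1.24 and 0.90 (adjusted p = 0.000301 and 0.00198) without it.

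**Figure D5:**
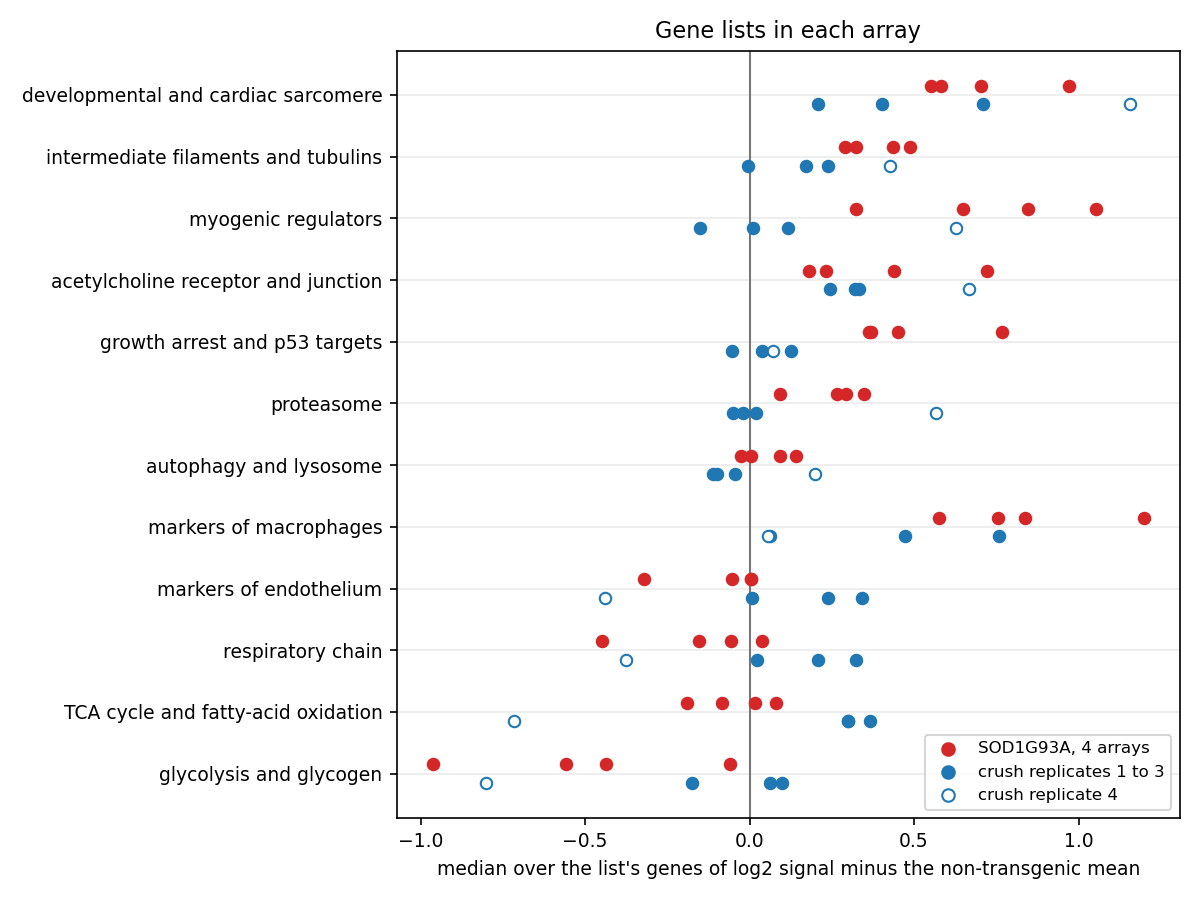
Median over each gene list of log2 signal minus the NTg mean (horizontal) in each SOD1G93A array and each crush array, one row a list, with crush replicate 4 as open points and the vertical line at the NTg mean. In the TCA cycle row crush replicates 1 to 3 lie at 0.30 to 0.37, the SOD1G93A arrays at -0.19 to 0.08 and crush replicate 4 at -0.72; in the myogenic row the SOD1G93A arrays lie at 0.32 to 1.05 and crush replicates 1 to 3 at -0.15 to 0.12.

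Whole muscle holds many cell types, and fewer cells of a type and less RNA per cell cannot be told apart. Of 11 tested macrophage markers 10 had a difference above 0 and 1 was called higher, where 3.95% of all genes were, with a median of 0.43. The summed linear signal of these markers was 1621 to 2416 in SOD1G93A arrays, 991 to 1640 in crushed arrays and 896 to 1103 in NTg arrays, so the groups of the comparison overlapped. Lgals3, galectin-3, had values of 7.76, 8.60, 8.19 and 8.52 against 6.46, 6.35 and 6.19, with 8.68 in crush replicate 4 (1.94, SE 0.42, adjusted p = 0.0104, kept in 6 fits; all arrays 1.35, adjusted p = 0.269). Ifitm3, an interferon-induced membrane protein, was the 1 call of 11 interferon and antigen-presentation genes, where 3.95% of all genes were higher (1.17, SE 0.27, adjusted p = 0.013, kept in 4 fits; all arrays 1.01, adjusted p = 0.156). All 11 differences of the interferon and antigen-presentation list were above 0, with and without crush replicate 4 (medians 0.56 and 0.48). Relative to NTg muscle, its medians were 0.55 to 1.34 in SOD1G93A arrays and 0.02 to 0.39 in crushed arrays. The part of these markers and genes in the other results was not tested.

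Endothelial markers had 1 of 11 lower, where 4.45% of all genes were, and a median of -0.36 (-0.13 with all arrays). The called marker was Cdh5, the junction protein VE-cadherin (-0.55, SE 0.14, adjusted p = 0.0221, kept in 4 fits; all arrays -0.41, adjusted p = 0.278). Crush replicates 1 to 3 lay at 0.01, 0.34 and 0.24 relative to NTg muscle on this list, the SOD1G93A arrays at -0.05, 0.01, 0.00 and -0.32, and crush replicate 4 at -0.44. Satellite cell markers had 1 of 4 higher, where 3.95% of all genes were, namely Sdc4 (1.43, SE 0.36, adjusted p = 0.0217, kept in 2 fits; all arrays 1.22, adjusted p = 0.194). No marker of Schwann cells and nerve (5 tested), lymphocytes and granulocytes (3), smooth muscle and pericytes (10), fibroblasts (12) or adipocytes (6) was called, with medians of 0.44, -0.02, -0.06, 0.09 and 0.72 (all arrays 0.29, -0.05, 0.04, 0.18 and 0.70). Mbp, myelin basic protein, had values of 8.65, 6.57, 9.30 and 8.75 in SOD1G93A muscle and of 8.42, 5.65, 6.97 and 5.49 in crushed muscle (1.31, adjusted p = 0.127; all arrays 1.69, adjusted p = 0.226). Summed Schwann and nerve markers were 4228 to 5243 in SOD1G93A arrays and 2818 to 4361 in crushed arrays.

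The remaining lists held few calls in the 4-against-3 comparison, where 3.95% of all genes were higher and 4.45% lower. Heat shock and antioxidant genes had 2 higher and 2 lower each, of 22 and 23 tested, and polyamine enzymes, excitability channels and calcium-handling genes 1 higher and 1 lower each, of 7, 10 and 29. Extracellular matrix genes had 1 of 35 higher, matrix turnover genes 1 of 9 higher and cell cycle genes 1 of 8 lower. Kcna7, a potassium channel of muscle, was the lower excitability gene (-1.34, SE 0.28, adjusted p = 0.01, kept in 6 fits; all arrays -0.59, adjusted p = 0.635). No gene of the dystrophin complex (12 tested), complement (6) or the circadian clock (9) was called. Their medians were 0.03, 0.55 and -0.24 (all arrays 0.05, 0.57 and -0.11). Relative to NTg muscle, the complement medians were 0.53 to 0.91 in SOD1G93A arrays and 0.03 to 0.47 in crushed arrays. C1qa, a chain of the first complement component, had values of 6.92, 7.15, 7.10 and 7.05 in SOD1G93A muscle and of 6.50, 5.60, 6.64 and 6.19 in crushed muscle. These groups did not overlap, as in 5.48% of all probe sets tested (0.82, adjusted p = 0.52 with all arrays).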

How the data were processed

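RNA of 20 muscles, 4 in each of 5 groups, was hybridised to Affymetrix mouse arrays of 1 colour. The authors deposited log2 signals of 10748 probe sets from MAS5, per the submitters' processing notes, with no detection calls. MAS5 scales each array on its own, and low signals are noisy. Probe sets in the lowest 30% by mean were left out, which kept 7523. limma 3.58.1 in R 4.3.3 fitted 5 group means to all 20 arrays (15 residual degrees of freedom), or to 19 without crush replicate 4 (14), with a mean-variance trend and Benjamini-Hochberg adjustment. The fit was also run on simulated data in which no array stood apart. That run therefore does not bear on crush replicate 4 or on leaving it out. The number of arrays limits the precision. Genes were named from the platform annotation updated through RefSeq: a single symbol was left for 9874, more than 1 for 387 and none for 487, and RefSeq held 9862. The members and lists were chosen with earlier results of these data known. Named genes were the 12 largest called changes each way, up to 4 called members of each of 37 tested lists (the 1 or 2 largest where none was called), and, where fewer than 12 were called, the 6 largest by limma's statistic. Alternatives covered scaling, filtering, the arrays fitted, array weights, priors, a replicate block and leaving out each array.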

Additional observations from a re-analysis of the deposited data

Results flagged for a closer look

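Each group of 4 was screened for 97 named genes (194 groups) for an array whose gap to its nearest neighbour, over the group's range, exceeded Dixon's 95% critical value, which chance passes in about 1 in 20 groups. Of 48 such values 42 were in crush replicate 4, which stood apart over all probe sets too, and 6 elsewhere. The 97 genes were called without crush replicate 4 and not with all arrays, so their choice favoured gaps at this array. The rate of 1 in 20 therefore does not apply to its count. Above the other crush arrays, crush replicate 4 had log2 signals of 10.31 for Aif1l, 10.50 for Atp13a3, 9.01 for Bex1, 11.34 for Chrna1, 9.27 for Cpne2, 11.02 for Ctsd, 10.86 for Ctsl, 9.13 for Eif4ebp1, 10.90 for Gadd45a, 12.48 for Hspb8, 8.86 for Il6st, 9.14 for Jun, 8.68 for Lgals3 and 10.57 for Mef2a. It was likewise above them at 11.18 for Myf6, 9.56 for Myod1, 10.59 for Psmb3, 10.37 for Psmd2, 9.78 for Psmd8, 8.35 for Tgfb3, 8.68 for Tnfrsf12a, 7.01 for Tubb2a, 9.08 for Tubb4b, 10.73 for Txn1 and 9.66 for Xbp1.

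Below the other crush arrays, it had 6.45 for Aplnr, 8.19 for Dlat, 7.67 for Gpd1, 3.99 for Grb14, 9.26 for Hspa9, 9.96 for Hspd1, 10.13 for Idh3a, 6.51 for Kcna7, 9.46 for Ndufs1, 7.15 for Nrep, 8.93 for Pdk2, 9.20 for Phka1, 7.90 for Phkg1, 4.18 for Ptx3, 6.62 for Slc16a3, 9.65 for Sod2 and 8.70 for Tfrc. In SOD1G93A muscle, replicate 4 stood apart at 9.74 for Hspd1, 9.47 for Ndufs1 and 9.60 for Psmd8, replicate 3 at 7.16 for Rapsn, and replicate 1 at 8.03 for Myl4 and 8.16 for Tubb5.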

How the results depend on the processing

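With all arrays, every alternative that left out no array gave 0 calls except array weights, which gave crush replicate 4 a weight of 0.193 and called 1282 probe sets. Leaving out 1 array gave 0 to 604. Without crush replicate 4, the 604 calls became 1141 when only gastrocnemius arrays were fitted and 1507 with array weights, and 113 to 985 when 1 further array was left out. Other scalings, filters, priors and the compared arrays alone gave 533 to 798. Same-numbered arrays deviated together with r of 0.343, 0.114, 0.0546 and 0.447, and differently numbered ones with r from -0.449 to 0.332. These r do not settle whether the numbers mark pairs. The labels do not say so, and the numbers were not taken as pairs. A replicate block gave 0 calls with all arrays and 550 without crush replicate 4, 498 of them shared with the unblocked fit. With all arrays the direction reversed for Slc16a3 (0.0648 without SOD1G93A replicate 4, with -1.13 without crush replicate 4 as the other end) and for Myf6 (-0.0696 without crush replicate 1 and -0.00877 without crush replicate 2, against 0.64 without crush replicate 4); the cause was not tested. Of 97 named genes called without crush replicate 4, 72 were called in every alternative that left out no array. Signals lack detection calls, so low values such as those of Tubb6 and Cpne2 in NTg muscle have unknown precision. The lowest adjusted p with all arrays was 0.117.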
